A study of Homo sapiens with 12 samples.

Results

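The genes examined here encode 7 regulators of the epithelial state: the splicing regulators ESRP1, ESRP2 and RBM47 and the transcription factors GRHL2, OVOL1, EHF and ELF3. Their chromatin was followed through 3 histone H3 marks in 4 related colorectal cancer cell lines, as a count of reads over each region of the deposited tables. Regions were chosen by position: every region of a table that overlapped one of the 7 genes, extended by 2 kb on both sides, was taken. This gave 249 regions of 244278 in the series, with 37 of 36400 for H3K4me3, 26 of 50000 for H3K27me3 and 186 of 157878 for H3K79me3. The genes themselves were picked with values of these libraries in view, so their levels are a description. Calls from tests over whole tables are given only as counts beside the share of all regions called, and support nothing about the genes by themselves.

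DLD1 is an established human colorectal cancer line, labelled epithelial, and was the parent of the other lines. SA was derived through growth in soft agar and SPH through growth as colonospheres, and the labels call both mesenchymal. METS was derived from a lung metastasis of a xenograft and is labelled epithelial. The medium of all 4 lines was McCoy's 5A with serum from fetal calves, and chromatin was precipitated with a Diagenode iDeal kit. There was 1 library for each line and mark, 12 in all, so a difference between lines has no replicate check, and a line cannot be told apart from its library. The 3 derivatives share 1 parent line, and each comparison with DLD1 uses the same DLD1 library. Library totals ran from 6722508 to 7753937 counts for H3K4me3, from 15605814 to 20410151 for the H3K27me3 table as used here and from 6165169 to 7521451 for H3K79me3. The labelled epithelial or mesenchymal state was not checked against markers outside the 7 genes, because their positions on build hg19 were not used here.

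ESRP1 and ESRP2 are RNA-binding proteins that switch exons of transcripts such as FGFR2 and CD44 to their epithelial forms. RBM47 is another RNA-binding protein, which acts in splicing and RNA stability and as a cofactor of APOBEC1 in RNA editing in the gut. GRHL2 is a grainyhead factor that keeps up genes of cell junctions, and OVOL1 is a zinc finger repressor that restrains mesenchymal genes, among them ZEB1. EHF and ELF3 are ETS factors of epithelia, and ELF3 is prominent in the differentiating intestine. ZEB and SNAI factors, which drive the epithelial to mesenchymal transition, bind E-boxes in promoters of epithelial genes. H3K4me3 sits at the starts of genes that are active or ready for activity. H3K27me3 is deposited by Polycomb repressive complex 2 over repressed genes. H3K79 methylation is placed by DOT1L along the first part of transcribed genes.

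RefSeq promoters, of 250 bases before and 50 after a start site on build GRCh38, were at hand for 3 of the 7 genes, 7 promoters in all. Those of ELF3, of the outermost EHF start at hand and of the internal RBM47 starts are shown, because marked regions of these genes are set beside their start sites below, by distance within each build. They were searched on both strands for CACCTG, the E-box bound by ZEB and SNAI factors, for the grainyhead site AACCGGTT, for the OVOL site CCGTTA and for the ETS site CAGGAAG. Each window held at most 1 match. Capitals mark the matches found, and letters in lower case hold none.
ELF3, chr1:202010337-202010636, plus strand: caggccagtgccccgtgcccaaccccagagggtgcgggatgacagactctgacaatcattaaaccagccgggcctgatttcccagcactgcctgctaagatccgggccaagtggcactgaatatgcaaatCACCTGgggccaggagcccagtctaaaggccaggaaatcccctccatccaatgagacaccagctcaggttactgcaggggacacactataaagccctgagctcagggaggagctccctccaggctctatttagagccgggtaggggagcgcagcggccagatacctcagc
EHF, chr11:34624007-34624306, plus strand: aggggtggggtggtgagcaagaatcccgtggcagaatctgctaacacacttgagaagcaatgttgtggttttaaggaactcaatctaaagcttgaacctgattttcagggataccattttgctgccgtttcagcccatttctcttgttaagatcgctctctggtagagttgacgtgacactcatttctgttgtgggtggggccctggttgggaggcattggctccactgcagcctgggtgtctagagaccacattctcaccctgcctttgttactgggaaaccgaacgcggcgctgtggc
RBM47, first internal start, chr4:40515936-40516235, minus strand: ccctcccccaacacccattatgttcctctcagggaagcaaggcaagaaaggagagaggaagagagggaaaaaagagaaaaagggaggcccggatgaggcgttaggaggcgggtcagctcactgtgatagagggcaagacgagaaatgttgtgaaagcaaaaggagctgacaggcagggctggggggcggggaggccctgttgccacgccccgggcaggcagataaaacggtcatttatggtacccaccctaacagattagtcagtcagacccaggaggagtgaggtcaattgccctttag
RBM47, second internal start, chr4:40514532-40514831, minus strand: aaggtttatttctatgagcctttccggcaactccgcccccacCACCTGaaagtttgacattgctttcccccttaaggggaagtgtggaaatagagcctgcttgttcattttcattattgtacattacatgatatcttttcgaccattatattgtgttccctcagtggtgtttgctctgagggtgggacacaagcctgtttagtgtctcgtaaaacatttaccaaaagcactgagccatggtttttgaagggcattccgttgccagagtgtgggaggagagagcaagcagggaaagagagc
The E-box was found once in ELF3, at base 131 of the window, and once in the second internal RBM47 promoter, at base 43. Among all 35116 RefSeq promoters of this length, 20.6% held CACCTG. The other 3 motifs were in none of the 7 windows, and were in 0.134%, 3.07% and 12.7% of all promoters for the grainyhead, OVOL and ETS letters.

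Values are normalised read counts, scaled by the total of the same library (CPM), and a gene's level is the sum over its regions. For H3K27me3, whose rows follow gene bodies, the row that best matches the gene is used. For ESRP2 this row spans 8.99 kb against 7.1 kb for the gene, and for EHF 40.0 kb against 42.2 kb. Folds are ratios of CPM between lines. The range in brackets after a fold is its exact 95% Clopper-Pearson interval, which covers counting error only and not the spread between cultures. Positions are on hg19, which the submitters' processing notes name, and distances run from the 5′ end of each gene as bounded by the selection. The strand, and so the 5′ end, comes from RefSeq for EHF, ELF3 and RBM47 and was assumed from general knowledge for ESRP1, ESRP2, GRHL2 and OVOL1.

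H3K4me3 reads were counted at regions of all 7 genes in every line, mesenchymal lines included. The regions are the same for every line and no input control is given, so a count alone does not show the mark. Of the 37 H3K4me3 regions, 12 reached the median level of all H3K4me3 regions. Per kb of region, DLD1 had 74.9 CPM at ESRP1, 65.5 at ESRP2, 45.8 at OVOL1, 42.1 at GRHL2, 38.0 at ELF3, 20.4 at RBM47 and 12.5 at EHF. Summed over the regions of a gene, SA and SPH stood at 0.703 to 1.31 times the DLD1 level for all 7 genes. In METS the range was 0.859 to 1.29 for 6 genes, and EHF stood apart at 0.335. H3K79me3 varied more, with ELF3 at 0.652 of DLD1 in SA and 1.89 in SPH, and EHF at 0.146 in METS. H3K27me3 per kb was lower over the other 6 genes than over RBM47 in DLD1, and over RBM47 it was higher in DLD1 than in each derivative.

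**Figure D1:**
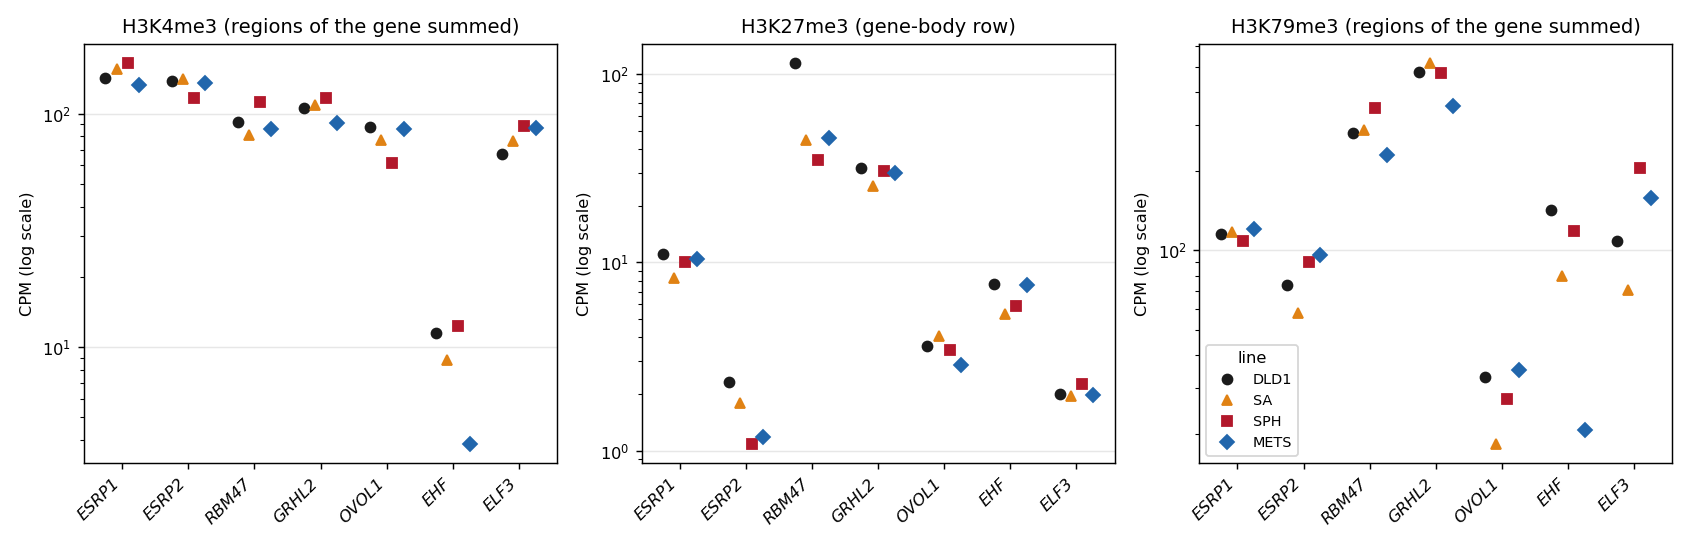
Level of each mark at each gene, in CPM on a log axis, with 1 point for each of the 4 lines and no error bars because each line has 1 library. H3K4me3 and H3K79me3 are sums over the gene's regions and H3K27me3 is the row of the gene body, so lines can be compared within a gene but not levels between genes. The points to see are METS at EHF for H3K4me3 (3.83 CPM) and H3K79me3 (20.8 CPM), and DLD1 at RBM47 for H3K27me3 (114.6 CPM).

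Single regions were called when they differed 2-fold from DLD1 with 0.5 CPM added to both values, and the same call over the whole table gives the background. For H3K4me3 in SA, 1 of 37 regions was higher, against 0.527% of all regions, and 3 were lower, against 2.1%. In SPH, 3 were higher (3.58% of all regions) and 0 were lower (3.34%). In METS, 1 was higher (3.91%) and 1 was lower (1.09%). The regions higher were 1 at ELF3, the same region in each derivative, and in SPH 2 at GRHL2 also. The regions lower were 3 at RBM47 in SA and 1 at EHF in METS. The median log2 ratio of the 37 regions was -0.03 in SA, 0.11 in SPH and -0.01 in METS, and that of all regions was -0.01, 0.01 and 0.0.

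For H3K27me3, 0 of 26 regions were higher in SA, SPH or METS, where 0.318%, 0.684% and 0.488% of all rows were. In each derivative 2 were lower, both at RBM47, against 0.472% of all rows in SA, 1.39% in SPH and 0.738% in METS. The median log2 ratio of the 26 regions was -0.32, -0.11 and -0.14 in SA, SPH and METS, and that of all rows was -0.07, -0.05 and 0.0. With TMM factors in place of library totals, the log2 ratios rose by 0.141 in SA and by 0.118 in SPH. The count lower in SA then became 1, against 0.24% of all rows.

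For H3K79me3, 5 of 186 regions were higher in SA (1.08% of all regions) and 6 were lower (2.3%). In SPH, 10 were higher (3.03%) and 3 were lower (5.11%). In METS, 5 were higher (7.14%) and 18 were lower (2.06%), and 11 of those 18 were the regions of EHF. The 18 are 9.68% of the regions of these genes. The median log2 ratio of the 186 regions was -0.15 in SA, -0.08 in SPH and -0.20 in METS, and that of all regions was -0.01, -0.10 and 0.07. With 0.5 CPM added, 73, 77 and 65 of the 186 regions lay above DLD1 in SA, SPH and METS. Of all H3K79me3 regions, 47.5%, 40.6% and 55.5% did. Regions of a gene share their library and are not replicates, so counts of regions above or below DLD1 are description. TMM factors raised the log2 ratios in SPH by 0.106.

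**Figure D2:**
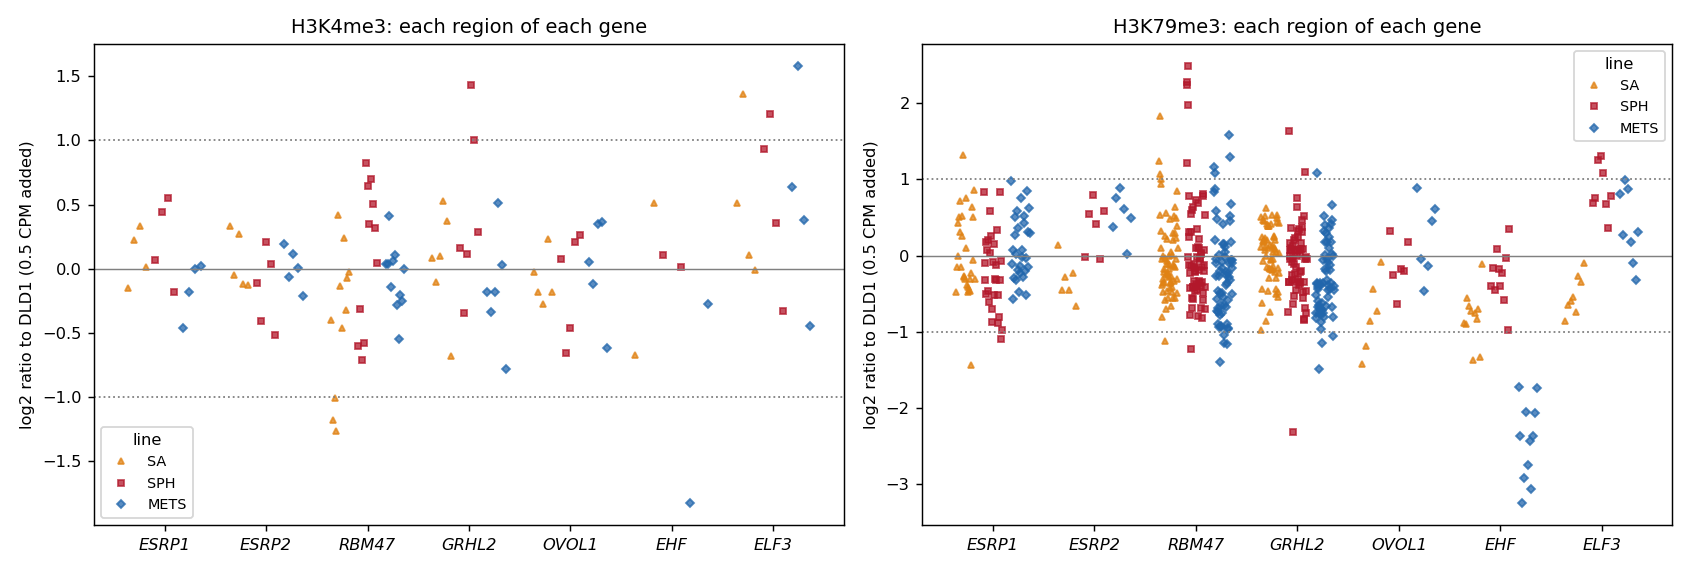
Log2 ratio to DLD1 of every H3K4me3 region (left, 37 regions) and H3K79me3 region (right, 186 regions) of the 7 genes, with 0.5 CPM added and 1 point for each region and derivative. Dotted lines mark 2-fold. All 11 H3K79me3 regions of EHF lie below the lower line in METS, and the points of ESRP1 and ESRP2 lie mostly between the lines.

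The splicing regulators are taken first. At ESRP1 neither active mark, summed over the gene's regions, was lower in SA or SPH than in DLD1 beyond counting error. Its H3K4me3 was 141.9 CPM in DLD1 and 155.1, 164.7 and 133.2 in SA, SPH and METS. Both mesenchymal lines lay above both epithelial lines, by 1.16-fold when pooled (1.09 to 1.24), also with TMM or DESeq2 factors. The share of all genes with this order was not counted. The difference was widest at the region chr8:95653536-95653993, at 0.2 to 0.7 kb, with 38.2, 48.2, 56.2 and 38.1 CPM in DLD1, SA, SPH and METS. There SA was 1.26-fold (1.07 to 1.48) and SPH 1.47-fold (1.25 to 1.73) above DLD1. The strongest region, chr8:95654158-95654614 at 0.9 to 1.3 kb, held 366, 426, 343 and 403 counts, and its ratios of 1.01, 0.881 and 1.01 to DLD1 had intervals that included 1.

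H3K79me3 at ESRP1 was 115.8 CPM in DLD1 and 117.8, 108.7 and 120.2 in SA, SPH and METS, and no line was set apart from DLD1 beyond counting error. In the first 10 kb, where 9 of its 29 regions lie, the levels were 82.7, 84.1, 81.4 and 84.6 CPM. The strongest region, chr8:95655294-95655739 just behind the promoter, held 232, 201, 177 and 183 counts. The region nearest the start, chr8:95654203-95654595 at 0.9 to 1.3 kb, ranked the lines otherwise, with 72, 49, 107 and 125 counts. There SPH was 1.81-fold (1.33 to 2.48) and METS 2.03-fold (1.51 to 2.75) above DLD1, and with 0.5 CPM added neither was called. The 3 regions called at 2-fold were weak, with 2 to 32 counts: chr8:95666841-95667188 was 3.01-fold higher in SA (1.48 to 6.61), chr8:95696430-95696844 was 5.80-fold lower in SA (1.29 to 53.4), and chr8:95710041-95710398 was 3.28-fold lower in SPH, with an interval from 0.885 to 18.1. H3K27me3 over the 66.4 kb of ESRP1 was 11.1, 8.26, 10.0 and 10.4 CPM. SA was at 0.745 of DLD1 (0.596 to 0.93), and the rows within 1 Mb on both sides stood at 0.878 in SA. With TMM factors the SA log2 ratio went from -0.42 to -0.28 (-0.60 to 0.04), so this difference did not hold beyond counting error. SPH and METS were within it.

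ESRP2 carried as much H3K4me3 in SA and METS as in DLD1 and slightly less in SPH. Its level was 137.3 CPM in DLD1 and 141.0, 117.1 and 135.8 in SA, SPH and METS. SPH was at 0.853 of DLD1 (0.776 to 0.938), and the flanking regions within 1 Mb were at 0.938. Most of this came from the strongest region, chr16:68269453-68269914 at 0.2 to 0.6 kb, with 529, 590, 425 and 549 counts, where SPH was 1.32-fold lower than DLD1 (1.16 to 1.51).

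H3K79me3 at ESRP2 did not follow the labelled states. It was 73.9 CPM in DLD1 and 57.9, 90.5 and 96.2 in SA, SPH and METS, so that SA was the lowest line and SPH stood with METS. The ratios to DLD1 were 0.783 (0.688 to 0.89), 1.22 (1.09 to 1.38) and 1.30 (1.16 to 1.46). In METS all 6 regions were above DLD1, and in SA 5 of 6 were below. The region chr16:68265643-68265962, at 4.1 to 4.5 kb, had 6.12, 4.95, 11.0 and 11.7 CPM, 1.80-fold above DLD1 in SPH (1.22 to 2.68) and 1.91-fold in METS (1.3 to 2.81). The strongest region, chr16:68267384-68267879, had 36.6, 31.1, 35.4 and 37.0 CPM and was within counting error in all lines. The region nearest the start, chr16:68269403-68269695, had 84, 50, 105 and 102 counts, 1.52-fold above DLD1 in SPH (1.13 to 2.06), 1.42-fold above it in METS (1.05 to 1.92) and at 0.615 in SA (0.425 to 0.884). H3K27me3 over ESRP2 rested on 36, 34, 22 and 24 counts. SPH was at 0.467 of DLD1 (0.262 to 0.816) and METS at 0.513 (0.293 to 0.884), and neither passed 2-fold once 0.5 CPM was added.

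RBM47 spans 207.6 kb and differed between lines in all 3 marks, in different parts of the gene. H3K27me3 over the gene body, chr4:40425272-40632892, was 114.6 CPM in DLD1 and 44.6, 35.0 and 45.9 in SA, SPH and METS, from 1789, 842, 714 and 931 counts. DLD1 was the highest line and the derivatives lay close together: DLD1 was 2.57-fold above SA (2.37 to 2.8), 3.28-fold above SPH (3.0 to 3.58) and 2.50-fold above METS (2.31 to 2.71). Per kb the level was 0.552 CPM in DLD1 and 0.168 to 0.221 CPM in the derivatives, the range of the other 6 genes in DLD1 being 0.167 to 0.352. By its mean per kb over all lines, the gene body ranked at percentile 44.3 of all H3K27me3 rows. The H3K27me3 rows within 1 Mb of the gene stood at 0.853, 0.916 and 1.01 of DLD1. A row nested in it, chr4:40428136-40429602 at 203.3 to 204.8 kb, held 36, 16, 6 and 15 counts, and DLD1 was 7.85-fold above SPH there (3.27 to 22.8). The 3 other nested rows had 2 or fewer counts in every line.

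H3K4me3 regions lay at both outer and internal starts of RBM47. The RefSeq start sites lie 0.258, 0.988, 114.9 and 116.3 kb from the 5′ end on GRCh38, in a gene of the same length of 207.6 kb. On hg19, H3K4me3 regions lay at 0.2 to 0.6 kb, 1.0 to 1.5 kb, 115.0 to 115.5 kb and 116.4 to 116.8 kb, each beside one of these starts, the last pair beside the promoters printed above. The strongest, chr4:40631416-40631843, had 28.1, 26.7, 35.1 and 23.6 CPM, with SPH 1.25-fold above DLD1 (1.03 to 1.52). The outermost, chr4:40632302-40632734, had 15.9, 15.6, 16.4 and 15.9 CPM and was level in all lines. At chr4:40516134-40516513, by the second internal start, the levels were 8.63, 11.7, 15.7 and 9.04 CPM, and SPH was 1.81-fold above DLD1 (1.31 to 2.54). Over all 11 regions the sum was 92.1, 80.9, 111.7 and 85.6 CPM, and SPH was the highest line.

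H3K79me3 at RBM47, summed over 65 regions, was 280.7 CPM in DLD1 and 286.6, 349.5 and 229.9 in SA, SPH and METS. SPH was at 1.25 of DLD1 (1.17 to 1.32) and METS at 0.819 (0.766 to 0.876), while SA was within counting error. Both mesenchymal lines lay above both epithelial lines under each scaling tried, and the share of all genes so ordered was not counted. The mark was strong behind the internal starts and again near the 3′ end, and the lines ranked differently in these stretches. The stretches given next were set after the values were seen. From 117.7 to 186.8 kb, 46 regions summed to 225.5 CPM in DLD1 and 197.0, 200.3 and 149.1 in SA, SPH and METS, so that METS was lowest at 0.661 of DLD1 (0.61 to 0.716). The flanking regions in METS were at 0.851. From 192.2 to 204.9 kb, 5 regions summed to 26.2, 56.0, 121.3 and 50.5 CPM. All 3 derivatives were above DLD1 there, SA by 2.14-fold (1.8 to 2.55), SPH by 4.63-fold (3.95 to 5.45) and METS by 1.93-fold (1.61 to 2.31). The 14 regions upstream of the internal starts held 29.0, 33.7, 27.9 and 30.3 CPM, all within counting error of DLD1. The nearest to the start, chr4:40630945-40631406, had 19, 20, 11 and 15 counts.

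Within the 3′ stretch the strongest region, chr4:40440518-40440905, went from 57 counts in DLD1 to 114 in SA, 277 in SPH and 92 in METS, and SPH was 5.93-fold above DLD1 (4.44 to 8.03). The region chr4:40434534-40434934 had 18, 71, 83 and 30 counts, 4.08-fold above DLD1 in SA (2.41 to 7.27) and 5.63-fold in SPH (3.35 to 9.95). H3K4me3 regions lay at the same places as 4 of these 5 and in SA and SPH all 4 had ratios to DLD1 below 1. At chr4:40440489-40440872 H3K4me3 was 5.65, 2.06, 3.63 and 5.07 CPM, 2.74-fold lower in SA than in DLD1 (1.49 to 5.26). At chr4:40439799-40440222 it was 2.24-fold lower in SA (1.21 to 4.29) and at chr4:40434523-40434943 3.08-fold lower (1.14 to 9.6), from 16 counts in DLD1 and 6 in SA. These 3 are the H3K4me3 regions of RBM47 called lower in SA. Over the 5 H3K79me3 regions of this stretch DLD1 had the least H3K79me3. At the 4 matched places its H3K4me3 was above SA, at 3 of them beyond counting error. The differences of SPH from DLD1 in H3K4me3 at these 4 places were all within counting error. H3K27me3 was higher in DLD1 than in any derivative over the whole gene body, which gives no position within the gene. It was also higher in the nested row given above, which rests on few counts.

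**Figure D3:**
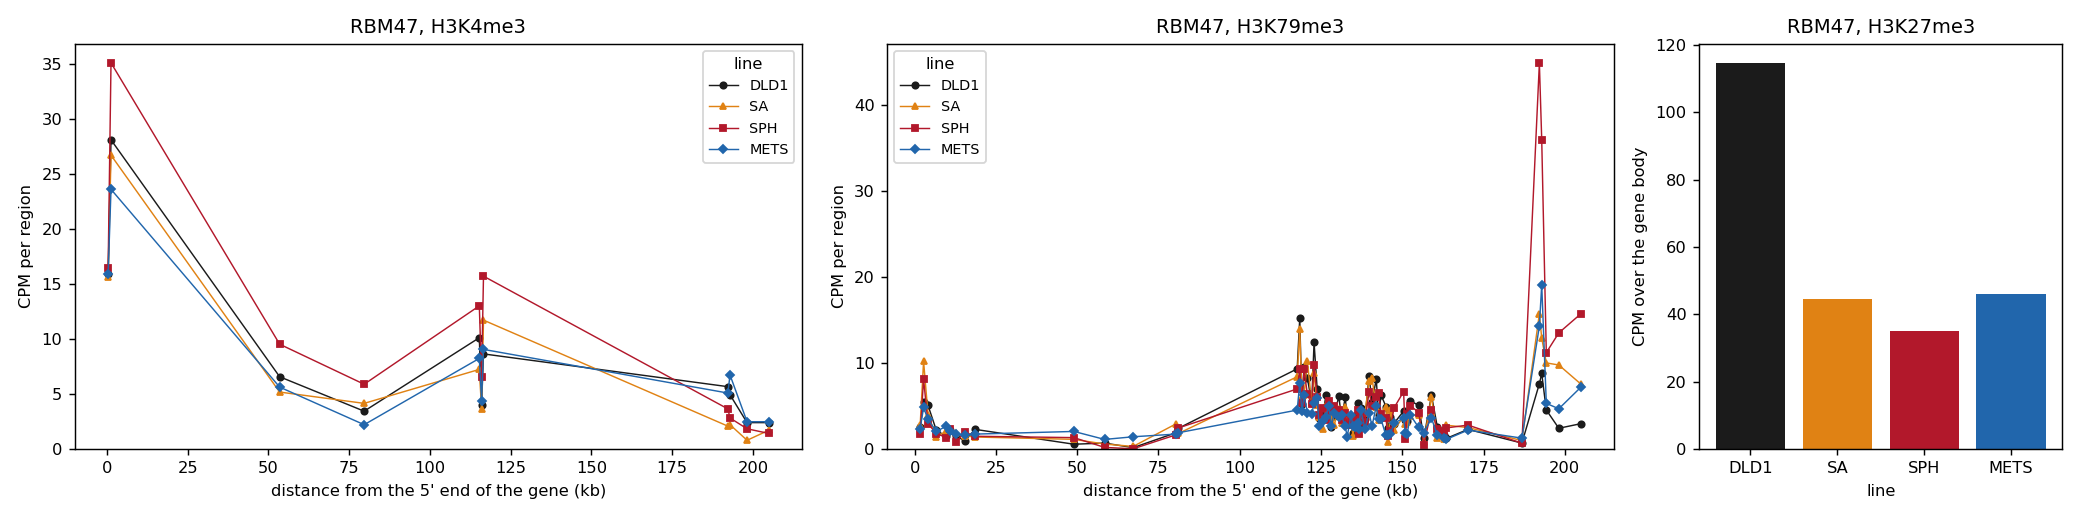
RBM47 in the 4 lines, with CPM for each H3K4me3 region (left) and H3K79me3 region (middle) against distance from the 5′ end in kb, and the H3K27me3 level of the gene body as bars (right). Points are regions and lines join the regions of 1 library. H3K79me3 of SPH reaches 44.9 CPM at 192.0 kb, and the H3K27me3 bar of DLD1 (114.6 CPM) stands above the bars of SA, SPH and METS (35.0 to 45.9 CPM).

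Other called H3K79me3 regions of RBM47 were scattered. In METS 4 regions between 122.7 and 145.2 kb were lower, among them chr4:40509796-40510238 with 93, 64, 60 and 34 counts, 2.34-fold below DLD1 (1.56 to 3.57). The region chr4:40487147-40487434 was 2.90-fold lower in SA (1.1 to 8.93) and chr4:40481816-40482017 was 2.93-fold lower in SPH (1.23 to 8.02). Higher in METS were chr4:40583688-40584104, with 4, 8, 8 and 13 counts, and chr4:40565468-40565858, with 1, 2, 0 and 9 counts.

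GRHL2 kept its promoter mark in both mesenchymal lines, and its H3K79me3 was lowest in METS. H3K4me3 was 106.1 CPM in DLD1 and 108.8, 116.4 and 91.1 in SA, SPH and METS, and METS was at 0.859 of DLD1 (0.771 to 0.956). Both mesenchymal lines were above both epithelial lines, by 1.15-fold pooled (1.07 to 1.23), and the share of all genes with this order was not counted. Against DLD1 alone, SA was at 1.03 (0.928 to 1.14) and SPH at 1.1 (0.992 to 1.22), both within counting error. The strongest region, chr8:102506280-102506689 at 1.6 to 2.0 kb, held 229, 284, 264 and 220 counts, with intervals that included 1 for each derivative. So did the intervals at chr8:102503986-102504499, the nearest to the start, with 223, 273, 267 and 213 counts. Inside the gene, 2 adjacent weak regions were higher in SPH. The region chr8:102513244-102513677, at 8.6 to 9.0 kb, had 17, 30, 55 and 28 counts, 3.04-fold above DLD1 in SPH (1.74 to 5.59). Its neighbour chr8:102513719-102514110 had 18, 28, 42 and 20 counts, 2.19-fold above (1.24 to 4.05).

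H3K79me3 at GRHL2, summed over 61 regions, was 477.8 CPM in DLD1 and 516.1, 471.4 and 355.2 in SA, SPH and METS. METS was at 0.743 of DLD1 (0.705 to 0.784), with 45 of 61 regions below DLD1, and the flanking regions within 1 Mb were at 0.851. Most of the difference in CPM lay in the first 20 kb. From 0 to 10 kb the levels were 182.5, 203.2, 189.9 and 125.0 CPM, a METS ratio of 0.685 (0.627 to 0.747), and from 10 to 20 kb the METS ratio was 0.624 (0.556 to 0.699). From 20 to 30 kb it was 0.977 (0.854 to 1.12). METS was also lower at both ends of the marked part, at 0.568 (0.398 to 0.801) in the regions before the 5′ end and at 0.63 (0.47 to 0.839) from 70 to 80 kb, which held 14.0 and 18.7 CPM in DLD1. The strongest region, chr8:102510631-102511031, had 228, 255, 197 and 123 counts, and chr8:102512342-102512494, with 79, 83, 61 and 22 counts, was 3.07-fold lower in METS (1.89 to 5.18).

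Smaller regions of GRHL2 went other ways. The nearest to the start, chr8:102503623-102503991, lies before the 5′ end and had 40, 18, 25 and 18 counts, at 0.465 of DLD1 in SA (0.251 to 0.831) and 0.526 in METS (0.284 to 0.939). At 1.0 to 1.3 kb, beside the promoter, chr8:102505611-102505971 had 14, 9, 42 and 29 counts, 3.66-fold above DLD1 in SPH (1.96 to 7.26) and 2.42-fold in METS (1.24 to 4.96). At 13.8 kb, chr8:102518416-102518692 had 33, 16, 3 and 14 counts, 9.02-fold below DLD1 in SPH (2.83 to 45.9). The regions chr8:102521735-102521878 and chr8:102574711-102575058 lay below DLD1 in METS, by 2.66-fold (1.22 to 6.41) and 2.47-fold (1.12 to 5.99). The region chr8:102570750-102571109, with 6 counts in DLD1 and 14 in SPH, was 2.85-fold higher in SPH (1.03 to 9.04). H3K27me3 over GRHL2 was 31.7, 25.6, 30.5 and 30.0 CPM, with SA at 0.806 of DLD1 (0.71 to 0.916) and the flanking rows at 0.72. With TMM factors the SA log2 ratio went from -0.31 to -0.17 (-0.35 to 0.01).

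At OVOL1, H3K4me3 and H3K79me3 were both lower in the 2 mesenchymal lines than in the 2 epithelial lines, under each scaling tried. It was the only gene of the 7 with this order in both marks. With TMM or DESeq2 factors, but not with library totals, ESRP1 and GRHL2 were higher in both mesenchymal lines in both marks. The share of all genes with either order was not counted, so these orders only describe the 7 genes. H3K4me3 of OVOL1 was 87.3 CPM in DLD1 and 76.9, 61.4 and 85.9 in SA, SPH and METS. SA was at 0.88 of DLD1 (0.784 to 0.988) and SPH at 0.703 (0.62 to 0.797). With TMM factors the SA log2 ratio went from -0.18 to -0.16 (-0.33 to 0.003), at the edge of counting error. The promoter region chr11:65554601-65555178, at 0.1 to 0.7 kb, held 422, 429, 284 and 422 counts and was 1.58-fold lower in SPH (1.36 to 1.84). The H3K4me3 regions within 1 Mb stood at 1.02 of DLD1 in SA and 0.994 in SPH.

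H3K79me3 at OVOL1 was 33.0 CPM in DLD1 and 18.3, 27.2 and 35.0 in SA, SPH and METS. SA was 1.80-fold lower than DLD1 (1.45 to 2.24), with all 6 regions below it, and SPH was at 0.826, with an interval from 0.675 to 1.01. The regions called lower in SA were chr11:65555358-65555718, with 59, 23, 40 and 49 counts and 2.48-fold lower (1.51 to 4.21), and chr11:65554716-65555086, with 9, 1, 10 and 17 counts. The strongest region, chr11:65556044-65556470, had 74, 38, 38 and 45 counts, so that all 3 derivatives lay below DLD1. Neither mark differed 2-fold over the whole gene. H3K27me3 over OVOL1 was 3.59, 4.08, 3.43 and 2.86 CPM, within counting error of DLD1 in each derivative.

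EHF was far lower in METS than in DLD1 in both active marks. Its stronger H3K4me3 region, chr11:34642754-34643293, lay near the 5′ end of the gene, at 0.2 to 0.7 kb. It had 64 counts in DLD1 and 45, 74 and 17 in SA, SPH and METS, or 9.52, 5.8, 10.3 and 2.33 CPM. METS was 4.09-fold below DLD1 (2.37 to 7.45) and SA 1.64-fold below (1.1 to 2.46), while SPH was within counting error. The other H3K4me3 region, chr11:34661565-34661939 at 19.0 to 19.4 kb, had 13, 23, 14 and 11 counts.

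H3K79me3 over EHF was 142.7 CPM in DLD1 and 79.7, 118.4 and 20.8 in SA, SPH and METS, from 1073, 580, 730 and 134 counts. METS was 6.85-fold below DLD1 (5.72 to 8.26), and each of the 11 regions was 3.97- to 13.4-fold lower. The region nearest the 5′ end, chr11:34645924-34646340, had 51, 25, 31 and 11 counts. At the strongest region, chr11:34650057-34650379, the counts were 139, 84, 121 and 13, and at chr11:34649417-34649674, where the fold was greatest, 110, 71, 65 and 7. SA was 1.79-fold below DLD1 (1.62 to 1.98), with all 11 regions below it and 2 past 2-fold: chr11:34655790-34656223 at 2.70-fold (1.9 to 3.91) and chr11:34664300-34664681 at 2.75-fold (1.72 to 4.52). SPH was at 0.83 of DLD1 (0.754 to 0.913). Each derivative thus lay below DLD1 beyond counting error, and both mesenchymal lines lay between the 2 lines labelled epithelial.

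The lower level in METS extended over the whole marked part of EHF and was not shared by the regions around it. From 0 to 10 kb the METS ratio was 0.147 (0.111 to 0.192), from 10 to 20 kb 0.129 (0.0948 to 0.172) and from 20 to 30 kb 0.214 (0.127 to 0.342). In the regions within 1 Mb of the gene METS stood at 0.899 for H3K79me3 and 0.997 for H3K4me3. The RefSeq starts of EHF at hand lie 3.16 and 11.5 kb from the 5′ end on GRCh38. The former is the promoter printed above, and the first H3K79me3 region began at 3.3 kb on hg19, while the H3K4me3 region lay at 0.2 to 0.7 kb. H3K27me3 over EHF was 7.69, 5.35, 5.88 and 7.59 CPM, with METS at 0.987 of DLD1 (0.773 to 1.26). This row covers the gene body and gives no position within the gene. SA and SPH were at 0.695 (0.528 to 0.914) and 0.765 (0.589 to 0.993). With TMM factors their log2 ratios went from -0.52 to -0.38 (-0.78 to 0.01) and from -0.39 to -0.27 (-0.65 to 0.11), and neither stayed beyond counting error. H3K27me3 in the flanking rows was at 0.877 in SA and 0.843 in SPH.

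ELF3, the other ETS factor, went the opposite way from EHF in METS. H3K4me3 was 67.1 CPM in DLD1 and 76.0, 88.2 and 86.5 in SA, SPH and METS, with SPH 1.31-fold (1.16 to 1.49) and METS 1.29-fold (1.14 to 1.46) above DLD1. The strongest region, chr1:201979880-201980355, held 344, 429, 470 and 487 counts. It began 2.8 kb inside the 9.24 kb interval used for ELF3, and the RefSeq gene is 6.6 kb long on GRCh38, so this region lies near the start whose promoter, with its E-box, is printed above. The region at the 5′ end of the interval, chr1:201976920-201977341, had 49, 82, 103 and 85 counts, and SPH was 1.98-fold above DLD1 (1.39 to 2.84). The weak region between them, chr1:201978931-201979253, had 3, 15, 12 and 17 counts, 4.33-fold (1.23 to 23.4), 3.76-fold (1.01 to 20.8) and 5.22-fold (1.51 to 27.8) above DLD1.

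Each derivative differed from DLD1 in H3K79me3 at ELF3, which was 108.8 CPM in DLD1 and 70.9, 205.2 and 157.8 in SA, SPH and METS. SA was 1.53-fold below DLD1 (1.37 to 1.72), with 8 of 8 regions below it. SPH was 1.89-fold above (1.73 to 2.06), with 8 of 8 regions above it, and METS 1.45-fold above (1.32 to 1.59), with 6 of 8. The 2 lines called mesenchymal thus lay at both ends. The strongest region, chr1:201981101-201981512, had 35.9, 22.8, 60.7 and 43.4 CPM. The nearest to the start, chr1:201979933-201980364, had 18.6, 10.0, 30.2 and 33.0 CPM, and METS was highest there, 1.77-fold above DLD1 (1.42 to 2.21). The regions past 2-fold in SPH were chr1:201981821-201982165 at 2.42-fold (1.94 to 3.03), chr1:201982576-201982985 at 2.53-fold (1.98 to 3.24) and chr1:201984165-201984415 at 2.19-fold (1.53 to 3.17). H3K79me3 within 1 Mb was at 0.926, 0.963 and 1.09 of DLD1 in SA, SPH and METS. H3K27me3 over ELF3 rested on 31, 37, 46 and 40 counts, and no derivative differed from DLD1 beyond counting error.

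**Figure D4:**
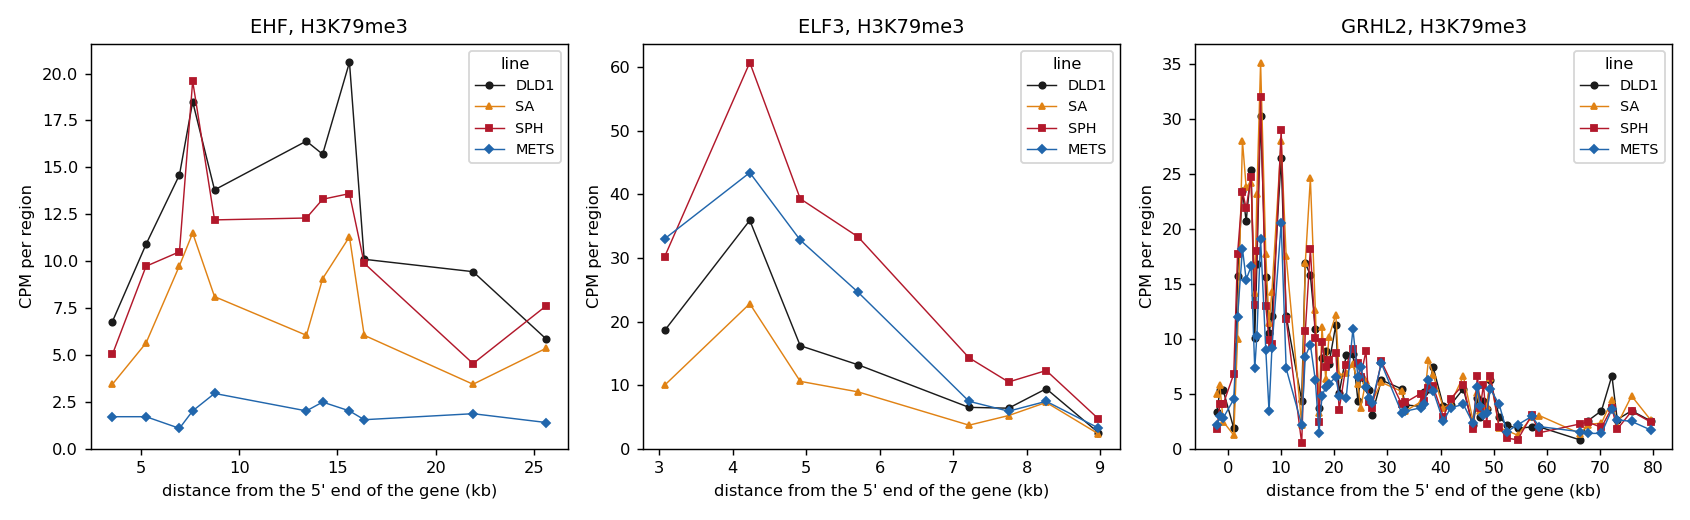
H3K79me3 along EHF, ELF3 and GRHL2, in CPM of each region against distance from the 5′ end in kb, with 1 line of points for each cell line. METS stays at or below 2.95 CPM across EHF, SPH is highest over most of ELF3, and METS is below the other lines over much of the first 20 kb of GRHL2.

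The labels imply a comparison of the mesenchymal lines SA and SPH with the epithelial lines DLD1 and METS. Requiring both lines of one state to pass 2-fold against both of the other, 0 of the 37 H3K4me3, 26 H3K27me3 and 186 H3K79me3 regions were higher in the mesenchymal lines, where 0.0137%, 0.048% and 0.0057% of all regions were. Lower in the mesenchymal lines were also 0, 0 and 0, where 0.69%, 0.004% and 0.215% of all regions were. The edgeR quasi-likelihood test, with each line as 1 replicate of its state and p-values adjusted by Benjamini-Hochberg over each table at 0.05, called 0 of the 37 H3K4me3 regions, against 0.298% of all, and 5 had an unadjusted p under 0.05. It called 0 of 186 H3K79me3 regions, against 0.0% of all, and 7 had an unadjusted p under 0.05. These shares, 13.5% and 3.76%, stand beside 11.0% and 2.99% of all regions. DESeq2 called 0 in both marks, against 0.0993% of all H3K4me3 regions and 0.0% of all H3K79me3 regions. The counts changed when single lines were left out, as did those of the whole tables. Without SA, edgeR called 4 of 37 H3K4me3 regions and 15.0% of all, and 2 of 186 H3K79me3 regions and 0.132% of all. Without DLD1 it called 3 H3K79me3 regions and 0.221% of all. By the 2-fold rule without DLD1, 10 H3K79me3 regions were higher in both mesenchymal lines than in METS, against 0.701% of all. Without SA 4 were higher (0.242% of all), and without METS 4 (0.206%). Without SPH, 3 H3K4me3 (1.1% of all) and 3 H3K79me3 regions (1.55%) were lower in SA than in both epithelial lines. Without METS, 2 H3K27me3 rows (0.16%) were lower in the mesenchymal lines than in DLD1.

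For H3K27me3, edgeR called 1 of 25 rows tested, the gene body of RBM47, against 0.637% of all rows. An unadjusted p under 0.05 was found for 2, or 8.0%, against 8.81% of all rows. Without DLD1 the test called 0 (0.903% of all rows), without SA 2 (2.59%) and without METS 2 (0.909%). DESeq2, which gave an adjusted p for 6 of these rows, RBM47 included, called 0, against 0.613% of all rows with one. METS, at 45.9 CPM, lay near SA, at 44.6 CPM, and with TMM or DESeq2 factors the 2 states overlapped. These p-values cover only the spread among 4 lines of 1 origin.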

How the data were processed

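The authors deposited 1 table per library of counts of reads in fixed regions; the values are whole numbers and their totals differ between lines, so they were taken as raw. The build was hg19, per the submitters' processing notes. The aligner, region caller, counter and input control are not given in the sources used here. The H3K27me3 rows overlap, and 7773 of them are missing from the table used here, by its closing line, so its CPM covers the rows held. The members and lists were chosen with earlier results of these data known.

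Counts were divided by the table's column total. A region was called at 2-fold with 0.5 CPM added. Single folds carry exact 95% Clopper-Pearson intervals from SciPy 1.17.1, conditional on the sum of both counts; PCR copies were not marked, so these cover counting error only. Named regions were, in each gene and mark, the strongest, those nearest the start and those past 2-fold. The states were compared with edgeR 4.0.16 in R 4.3.3 on whole tables, by the quasi-likelihood test with library totals and Benjamini-Hochberg adjustment, and tested on simulated data. Alternatives were TMM factors, DESeq2 1.42.0 size factors and its Wald test, other added values, a 1.5-fold threshold, a minimum mean of 10 counts, other gene limits and each line left out. Promoters came from RefSeq on GRCh38.p14, and no position was converted between builds. Lists of other epithelial genes, splicing regulators and cell markers were not analysed here.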

Additional observations from a re-analysis of the deposited data

How the results depend on the processing

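No paired analysis was possible because each line has 1 library per mark and the labels carry no replicate numbers. Of the alternative values for single genes, 201 moved by less than the counting interval and 9 by more, and no called ratio to DLD1 changed sign. H3K79me3 of GRHL2 in SPH, which was level with DLD1, went from a log2 ratio of -0.02 to 0.09 (0.01 to 0.16) with TMM and 0.11 (0.04 to 0.18) with DESeq2 factors. H3K4me3 of ELF3 in SA went from 0.18 to 0.20 (0.02 to 0.38) with TMM factors. The H3K27me3 differences of SA at ESRP1, GRHL2 and EHF and of SPH at EHF, and the H3K4me3 difference of SA at OVOL1, came to include no change with either. Counts of called regions moved in 46 cases and stayed within 1.5 times in 191. With 1 CPM added, H3K4me3 regions lower in SA went from 3 (2.1% of all regions) to 1 (1.23%). Those higher in SPH went from 3 (3.58%) to 1 (2.12%). H3K27me3 regions lower in SA and in METS went from 2 to 1, and H3K79me3 regions higher in SA and in METS from 5 to 3. The shares of all H3K27me3 rows went from 0.472% to 0.152% in SA and from 0.738% to 0.368% in METS. Those of all H3K79me3 regions went from 1.08% to 0.299% and from 7.14% to 3.75%. With 0.25 CPM added, H3K79me3 regions lower in SPH went from 3 (5.11% of all regions) to 7 (7.76%). At 1.5-fold, with the share of all regions in brackets, H3K4me3 gave 5 lower in SA (7.92%), 7 higher (14.0%) and 3 lower (8.44%) in SPH, 2 higher (9.2%) and 3 lower (5.67%) in METS and 1 lower in both mesenchymal lines (2.15%). H3K27me3 gave 4 lower in METS (5.24%). H3K79me3 gave 13 higher (7.1%) and 28 lower (10.8%) in SA, 27 higher (10.6%) and 23 lower (17.9%) in SPH, 22 higher (19.9%) and 51 lower (9.78%) in METS and 3 higher in both mesenchymal lines (0.206%). TMM or DESeq2 factors moved H3K27me3 regions lower in SA from 2 (0.472% of all rows) to 1 (0.24%). With these or 0.25 CPM 1 H3K79me3 region was higher in both mesenchymal lines, against 0.0139%, 0.0152% and 0.0165% of all regions. A minimum mean of 10 counts left 3 H3K79me3 regions higher in METS (4.68% of all) and 0 H3K27me3 rows called by edgeR (0.026%). The DESeq2 Wald test called 0 H3K27me3 rows (0.613% of all). Leaving out each line in turn gave edgeR calls from 0 to 4 for H3K4me3, 0 to 2 for H3K27me3 and 0 to 3 for H3K79me3. The shares of all regions called ranged from 0.163% to 15.0%, 0.419% to 2.59% and 0.0% to 0.221%, in this order of marks. Regions higher in the mesenchymal lines ranged from 0 to 1, 0 to 0 and 0 to 10, and those lower from 0 to 3, 0 to 2 and 0 to 3, in the same order of marks. Of all regions, 0.0275% to 1.02%, 0.074% to 0.26% and 0.13% to 0.701% were higher. Lower were 1.1% to 3.35%, 0.034% to 0.364% and 0.478% to 3.2%. The cause was not tested. Regions under 20 counts carry wide intervals, and H3K27me3 at ESRP2 and ELF3 rests on 22 to 46 counts.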
